A study of Mus musculus with 24 samples.

Results

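Ventricles of 1-week-old and 4-week-old FVB mice were compared, an interval that runs from the suckling pup to the young mouse after weaning. The comparison used 6 of the 24 single-channel Affymetrix arrays of the series, 3 titled for 1 week and 3 titled for 4 weeks, and every probe set that was neither a control nor listed at 0 on all 24 arrays. This left 9977 probe sets, of which 9952 lay above a floor of 14.2 signal units on at least 3 of the 24 arrays and were tested. FVB is an inbred strain. The labels name heart ventricle as the source of all 6 samples and give no allele, agent or treatment for either age, and no sex. Each title of these 6 samples carries 1 animal number, but the labels do not state that the samples came from separate animals. Each p-value thus reflects only how arrays spread within the 8 groups of the fit, which may be in part technical. The 4 further groups used for reference are ventricles of embryonic day 12.5 (E12.5) and of neonates, of 3-month females and of 5-month males, again without any treatment in the labels and with 3 arrays each. Groups of 1-year FVB mice, titled f and m and with 3 arrays each, complete the 8 groups of the fit and of the comparisons across groups. The titles list 3 animal numbers for each E12.5 sample and 2 for each neonatal one, and pooling is not stated.

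In the weeks after birth the rodent heart changes from growth by cell division to growth by cell enlargement. Cardiomyocytes leave the cell cycle, exchange fetal for adult isoforms of contractile proteins, and build mitochondria and calcium-handling membranes, while the fuel shifts from glucose and lactate toward fatty acids. Fibroblasts lay down much of the collagen and elastic matrix early in this period. All values below are linear signals scaled by the authors. Changes are log2 differences of 4 weeks minus 1 week ± the standard error (SE) of a limma fit to all 24 arrays, and a gene is said to rise or fall where its Benjamini-Hochberg adjusted p from limma was under 0.05. Where a gene has several probe sets, the one brightest on average over the 24 arrays stands for it. Since whole ventricle was measured, fewer cells of a type and less RNA per cell cannot be told apart anywhere in what follows.

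The arrays of each age resembled each other more than those of the other age. Log2 signals correlated across probe sets with r from 0.922 to 0.937 within 1 week, from 0.931 to 0.939 within 4 weeks and from 0.896 to 0.919 between the ages. Non-mouse control probe sets set a background level of 124.6 (the 95th percentile of 19 of them), below which a signal is not read as expression. Cardiomyocyte markers were present on every array: the summed signal of the 9 measured markers was 175926 to 185697 at 1 week and 175675 to 216322 at 4 weeks. The control probe set at the 3' end of 18S ribosomal RNA read 3018, 876 and 848 at 1 week and 352.7, 247.6 and 321 at 4 weeks, and the ratio of 3' to 5' actin signal was 0.996 to 1.084 against 1.122 to 1.344. The part of these differences in the results was not tested. Xist, the RNA of the inactive X chromosome, read 1244 on 1-week array 1 and at most 96.3 on the other 5 arrays, while the Y-linked Eif2s3y read 6 on that array and 228.8 to 368.4 on the others. Without that array, 370 probe sets were higher and 360 lower at 4 weeks by limma.

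Between 1 and 4 weeks 909 of 9952 probe sets (9.13%) passed the threshold, 442 of them higher (4.44%) and 467 lower (4.69%) at 4 weeks. Read as genes, 377 of 7406 rose (5.09%) and 381 fell (5.14%), while the median change over all genes was 0.01. Every list count below stands against these shares. Fitted changes of more than 4-fold were found for 40 higher and 70 lower probe sets. These counts include probe sets below background at 1 age or at both, where the fitted fold is not a measured one. The 3 arrays of 1 age lay entirely above those of the other for 897 of the 909, against 12.9% of all probe sets above and 13.6% below at 4 weeks. The call of 444 probe sets held without each of the 6 arrays in turn. In a fit of only these 6 arrays 586 probe sets passed.

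**Figure D1:**
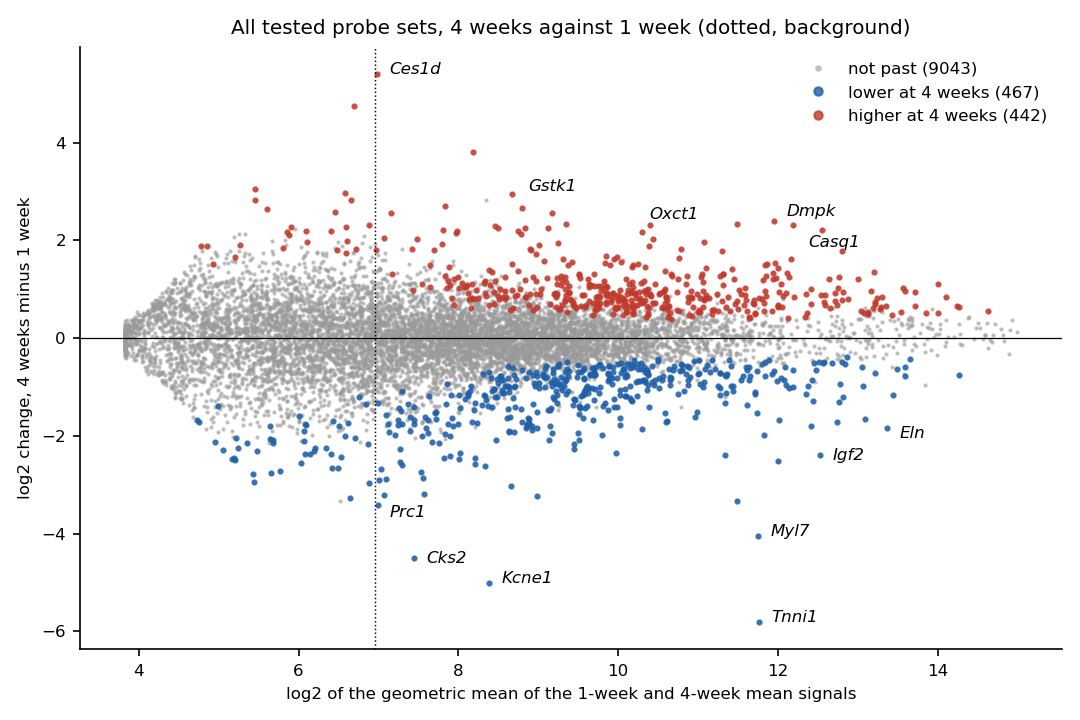
Change from 1 to 4 weeks (log2, vertical axis) against the log2 geometric mean of the 1-week and 4-week mean signals (horizontal axis) for the 9952 tested probe sets, with the 909 past the adjusted p of 0.05 in colour. Among named genes Tnni1, Kcne1, Cks2 and Myl7 lie lowest and Ces1d lies highest, at a change of 5.39.

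Of 15 measured thin-filament genes 2 rose and 4 fell, and of 9 thick-filament genes 1 rose and 3 fell. Troponin I is the inhibitory subunit of the calcium switch on the thin filament, and Tnni1 (Entrez gene 21952, chromosome 1) encodes its slow skeletal form, which the fetal heart uses. Tnni1 read 24425.3, 22539.9 and 28670.9 at 1 week and 754.5, 378.8 and 318.1 at 4 weeks. Every 4-week array was thus far below every 1-week array, and the signal fell 55.8-fold (log2 -5.80 ± 0.24, adjusted p = 4.26e-14, limma). At 1 week its mean of 25212 was close to that of neonates (27472), and at 4 weeks its mean of 484 was close to those of adult groups (343 to 494). Tnni3, the adult cardiac troponin I, read 25479.8, 24467.9 and 32605 at 1 week and 38004.1, 29635.3 and 38203.5 at 4 weeks. The Tnni3 arrays of the ages overlap and the change of 0.36 ± 0.22 did not pass (adjusted p = 0.4, limma), whereas from E12.5 to neonate Tnni3 had risen by 1.74 ± 0.22.

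Cardiac troponin T, Tnnt2, anchors the troponin complex to tropomyosin and rose by 0.65 ± 0.17, from 15448 ± 1932 (SD, n = 3) to 24128 ± 1561. Its call ended without 1-week array 3, 4-week array 1 or 4-week array 3 (adjusted p = 0.0647, 0.0646 and 0.0519, limma). Skeletal alpha-actin, Acta1, read 4386.7, 4754.2 and 4279.9 at 1 week and 13649.6, 9404.7 and 9306.5 at 4 weeks, a rise of 1.25 ± 0.23 (adjusted p = 0.000554, limma) with no overlap. The smooth-muscle actin Acta2 fell by 0.96 ± 0.24 from 6117 ± 873 to 3146 ± 335, and this call ended without 1-week array 3 (adjusted p = 0.0645, limma) or 4-week array 1 (0.0605). Tropomyosin, which lies along the actin filament, fell in its beta form Tpm2 by 1.48 ± 0.22 (929 ± 206 to 334 ± 78.9). Tpm4 was lower by 0.60 ± 0.19 with an adjusted p of 0.0489 (limma), which exceeded 0.05 in 5 of the 6 fits without 1 array (the exception being that without 1-week array 3), with values up to 0.214. Other cardiac partners did not pass: cardiac actin Actc1 (24151 ± 1022 and 25136 ± 1650) and troponin C Tnnc1 (26755 ± 2216 and 30269 ± 2876) overlapped between the ages. The remaining measured thin-filament genes, Tnnt1, Tpm3 and Actg2 above background and Tnni2, Tnnt3 and Tnnc2 below it, did not pass.

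Myosin light chains regulate and stabilise the myosin head, and the atrial regulatory chain Myl7 showed the largest fall among thick-filament genes. Myl7 read 12318.2, 13540.7 and 16292.8 at 1 week and 980.3, 699.6 and 877.2 at 4 weeks, without overlap (log2 -4.05 ± 0.92, adjusted p = 0.00503, limma). The SE is estimated over all 8 groups, and the 3-month arrays read 110.5, 1689 and 1748.1. In the fit of 6 arrays the adjusted p was 0.000232 (limma). The non-muscle and smooth-muscle chain Myl9 fell by 1.12 ± 0.18, from 1121 ± 74.5 to 516 ± 17.7. The ventricular chains Myl2 (29615 ± 1535 and 28611 ± 2407) and Myl3 (25678 ± 2426 and 27291 ± 5433) overlapped between the ages and did not pass, and neither did the atrial chain Myl4 (1055 ± 35.4 and 596 ± 80.4, adjusted p = 0.412, limma). One 3-month array read 301.8 for Myl2 against 14949.2 and 17033.3 on the other two, which gave its change an SE of 0.82.

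Adult mouse ventricle runs on the fast alpha myosin heavy chain Myh6, and the slow beta chain Myh7 is the fetal partner. Myh6 read 27914.8, 26949.7 and 29413 at 1 week and 30563.5, 24833.3 and 33450.6 at 4 weeks, a difference of 0.07 ± 0.22 that did not pass. Myh7 read 9034.7, 9651.5 and 14354 at 1 week and 5256.6, 3689.2 and 5157.6 at 4 weeks, a fall of 1.22 ± 0.33 (adjusted p = 0.0194, limma). Its call ended without 1-week array 3 (0.104), without 4-week array 2 (0.0952) or without the intensity trend in the fit (0.0546). The 4-week mean of 4701 was the lowest of the 8 groups: neonates had 26607 and the adult groups 10233 to 17465. Myom1, a protein of the M line that ties thick filaments together, rose by 0.93 ± 0.15 from 2997 ± 155 to 5726 ± 249. Its relative Myom2 had 2717 ± 222 at 1 week and 1505 ± 246 at 4 weeks (adjusted p = 0.0558, limma), after a rise of 5.64 ± 0.28 from E12.5 to neonate.

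**Figure D2:**
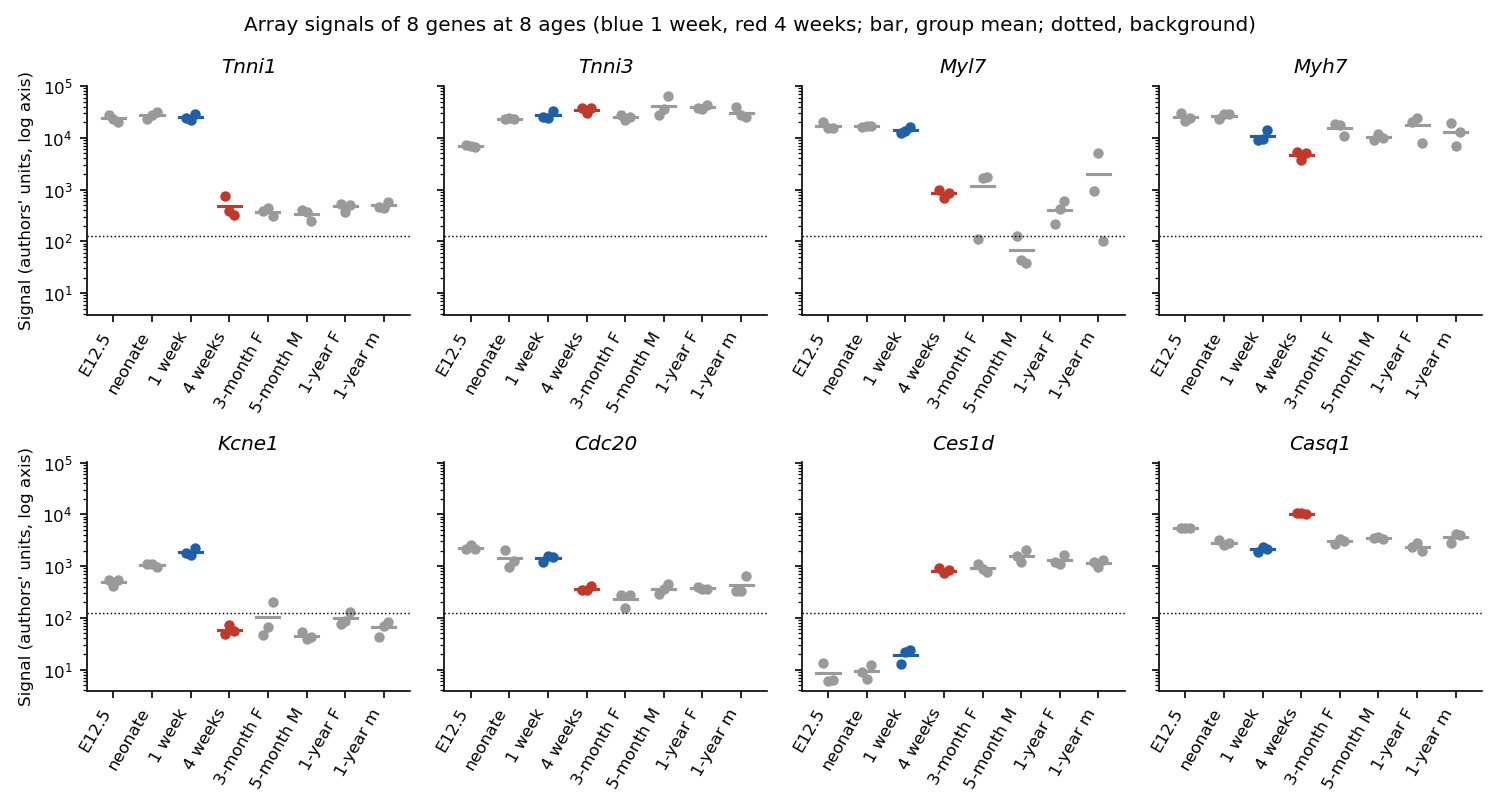
Signal on each array (log scale) of 8 genes in the 8 groups of the series, with a short bar at each group mean and a dotted line at the background of 124.6. Tnni1 and Myl7 drop between 1 and 4 weeks while Tnni3 stays level, Kcne1 peaks at 1 week, and Casq1 peaks at 4 weeks with a mean of 10346.

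Genes of the fetal programme, a set that includes several genes already named, moved down more often than up: of 16 measured, 7 fell and 2 rose, with a median change of -0.72. The atrial natriuretic peptide Nppa, a hormone made by fetal ventricle, read 4844.4, 6117.9 and 6390.1 at 1 week and 2389, 1685.7 and 1954.2 at 4 weeks (log2 -1.53 ± 0.28, adjusted p = 0.000643, limma). Its relative Nppb had 5491 ± 2642 and 7927 ± 1421 and did not pass. Hexokinase 1, Hk1, fell by 0.70 ± 0.17 (3195 ± 723 to 1930 ± 133), a call that ended without 1-week array 3 (adjusted p = 0.0618, limma) and in the fit of 6 arrays (0.0696). Transgelin, Tagln, an actin-binding protein of smooth muscle, fell by 0.74 ± 0.18. This ended without 1-week array 3 (0.0507), without 4-week array 2 (0.078) and in the fit of 6 arrays (0.0967). Pyruvate kinase Pkm rose by 0.51 ± 0.14 from 12485 ± 1796 to 17674 ± 1269, and the call ended without 1-week array 1 (0.0861), 1-week array 2 (0.0633) or 4-week array 1 (0.088) and in the fit of 6 arrays (0.103). Ckb, Ldha, Cnn1 and Slc2a1 did not pass, and Slc2a1 was below background on 4 of the 6 arrays.

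Of 12 measured atrial markers 4 fell and none rose, and their summed signal was 22125 to 26934 on the 1-week arrays against 4491 to 5785 at 4 weeks. They were Myl7, Nppa, the secreted Wnt modulator Dkk3 and, with an adjusted p of 0.0451 (limma), the connexin Gja5. Myl7 and Nppa made up most of the summed signal at 1 week. Dkk3 read 1167, 1451.2 and 743.3 against 222.7, 147.4 and 70 (log2 -3.03 ± 0.42). The call of Gja5 ended in 5 of the 6 fits without 1 array, all but that without 1-week array 2, with adjusted p up to 0.171. Sln, the atrial inhibitor of the calcium pump, was below background on all 6 arrays but 1, 4-week array 1 at 186.5. Whether the amount of atrial tissue in the samples changed was not tested.

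Of 18 measured calcium-handling genes 5 rose and none fell, with a median change of 0.41 against 0.01 for all genes. Casq1, the calsequestrin that binds calcium inside the sarcoplasmic reticulum of skeletal muscle, read 1888.3, 2315.1 and 2100.3 at 1 week and 10570, 10393.6 and 10074.3 at 4 weeks (log2 2.30 ± 0.14, adjusted p = 6.25e-11, limma). The 4-week level stood above every other group of the series, whose means lay between 2101 and 5451. The cardiac calsequestrin Casq2 had 683 ± 68.6 and 851 ± 133 and did not pass. Hrc, the histidine-rich calcium-binding protein of the same compartment, rose by 1.51 ± 0.15, reading 2406.9, 2191.1 and 2053.3 and then 6790.8, 5797.7 and 6349. S100a1, a calcium sensor that acts on the pump and the release channel, rose by 0.90 ± 0.14 (3840 ± 586 to 7125 ± 336). The inositol trisphosphate receptor Itpr2 rose by 1.5 ± 0.37 (395 ± 84.7 to 1122 ± 259), a call that ended without 1-week array 3 (adjusted p = 0.0583, limma) or 4-week array 3 (0.0513). The channel subunit Cacnb2 was higher by 0.52 ± 0.16 with an adjusted p of 0.0492, above 0.05 in 5 of the 6 fits without 1 array, all but that without 1-week array 3, at 0.111 to 0.148. The calcium pump Atp2a2 had 12685 ± 1793 and 19150 ± 2296, with no overlap between the ages, and did not pass (adjusted p = 0.11, limma).

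Skeletal-muscle markers were read beside Casq1 and Acta1. Of 16 measured, 3 rose, namely those 2 and the light chain Myl1 (1273 ± 207 to 1951 ± 44), and 8 were above background. The call of Myl1 (0.63 ± 0.17) ended without 1-week array 3 (adjusted p = 0.0957, limma) or 4-week array 3 (0.0584). The defining fast troponins Tnnt3 and Tnnc2 were below background at both ages, on every array. The list's summed signal was 9361 to 10942 at 1 week and 23861 to 28499 at 4 weeks. Casq1 and Acta1 made up most of it at both ages, so the sum mainly restates their rise.

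Among 22 ion-channel genes 2 rose and 2 fell, where 5.09% of all genes rose and 5.14% fell. Kcne1 is the accessory subunit that slows the delayed-rectifier potassium channel. It read 1795.6, 1669 and 2207.8 at 1 week and 49.1, 71.9 and 56.2 at 4 weeks, so the 4-week arrays were all below background and the level was at least 15.1-fold higher at 1 week (log2 -5.01 ± 0.41, adjusted p = 8.5e-09, limma). Kcnq1, the pore-forming partner of Kcne1, had 364 ± 93.3 and 386 ± 73.2 and did not pass. The background potassium channel Kcnk3 rose by 2.24 ± 0.34, reading 257.9, 219.8 and 289.3 and then 1099.2, 1200.7 and 1323.1. Kcnj11, the pore of the ATP-sensitive potassium channel, rose by 1.09 ± 0.28 (546 ± 21.8 to 1195 ± 356), and the call ended without 4-week array 1 (adjusted p = 0.104, limma). The gap-junction connexin Gja1 of working myocardium had 11401 ± 672 and 11960 ± 636 and did not pass. At the Z disc, Fhl2, an adaptor between titin and signalling enzymes, rose by 1.02 ± 0.13 from 8543 ± 516 to 17352 ± 1657. Dmpk, the myotonic dystrophy kinase, was among the 15 genes with the largest rises. It read 1965.5, 1581.4 and 1648.4 at 1 week and 8819.9, 9345.2 and 9183.6 at 4 weeks (log2 2.40 ± 0.13).

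Cell division genes were called in 1 direction. Over 113 measured genes of the lists on cyclins, cell cycle inhibitors, DNA replication and mitosis, 43 fell and none rose, with a median change of -1.2. Of the 43, 30 kept their call without each array in turn. The fits without 1 array called 36 to 41 genes of the set lower, and 1 higher without 1-week array 2. On each array the median deviation of these genes from their 24-array mean was 0.74, 0.66 and 0.66 at 1 week and -0.51, -0.42 and -0.59 at 4 weeks. The neonates, at 0.89, 0.61 and 0.64, overlapped the 1-week arrays. Mitosis and cytokinesis had 18 of 36 genes lower, replication 14 of 37, cyclins and their kinases 8 of 18, and the inhibitors and E2F partners 3 of 22.

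Transcription of these genes is known to be periodic, and the promoters of 4 that fell are shown for the short elements they carry. Late cell cycle genes commonly hold the cell cycle homology region TTTGAA downstream of CCAAT boxes, and replication genes hold E2F sites such as TTTCGCGC and TTTGGCGC. The 160 bases upstream of an annotated start of Prc1, Cdc20, Cdk1 and Mcm5 (RefSeq, GRCm38.p6) follow, 5' to 3' on the gene's strand. Prc1 has 2 listed starts, and the window of the second is shown. Capitals mark matches to these 4 motifs on either strand, where ATTGG is CCAAT read from the opposite strand. In Mcm5 the matches to TTTCGCGC and TTTGGCGC share letters.
Prc1, chr7:80294316-80294475, plus strand: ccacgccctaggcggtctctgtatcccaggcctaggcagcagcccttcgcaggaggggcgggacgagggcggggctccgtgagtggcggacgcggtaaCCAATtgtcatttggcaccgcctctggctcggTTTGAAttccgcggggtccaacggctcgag
Cdc20, chr4:118437344-118437503, minus strand: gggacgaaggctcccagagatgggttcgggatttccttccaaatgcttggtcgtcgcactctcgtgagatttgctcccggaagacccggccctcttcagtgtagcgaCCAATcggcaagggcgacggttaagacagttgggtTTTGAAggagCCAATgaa
Cdk1, chr10:69352913-69353072, minus strand: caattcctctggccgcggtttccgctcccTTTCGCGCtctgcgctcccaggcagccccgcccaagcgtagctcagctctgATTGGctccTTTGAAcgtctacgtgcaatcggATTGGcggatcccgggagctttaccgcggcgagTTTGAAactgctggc
Mcm5, chr8:75109349-75109508, plus strand: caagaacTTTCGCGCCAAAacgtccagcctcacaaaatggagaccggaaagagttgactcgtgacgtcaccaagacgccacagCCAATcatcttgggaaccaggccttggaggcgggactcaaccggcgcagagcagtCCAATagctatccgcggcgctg

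Motifs were counted over 300 bases around each listed start (250 before, 50 after) and on both strands. A gene counted where any of its listed starts held the match. TTTGAA was present in 10 of 15 mitosis genes that fell and had a promoter in the table (66.7%), against 15.6% of 5908 tested genes. It was as common in mitosis genes that did not pass, 11 of 16 (68.8%), so the element did not separate called members from uncalled ones. Uncalled members may also have fallen, since the median change over the list was -1.42. A link of TTTGAA to the change was thus not tested. Among replication genes that fell it was in 1 of 13 (7.69%), Mcm2. The E2F match TTTCGCGC was in 4 of those 13 (30.8%), Lig1, Mcm5, Mcm7 and Uhrf1, against 0.711% of all genes and none of the mitosis genes that fell. Replication genes that did not pass held it in 3 of 21 (14.3%). TTTGGCGC was in 3 of 13 (23.1%), Cdt1, Mcm3 and Mcm5, and in 4 of 21 that did not pass (19%), against 1.12% of all. CCAAT was in 12 of 15 mitosis genes that fell (80%) and 13 of 16 that did not pass (81.2%), against 42.5% of all. These matches describe letters and are not measured binding.

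Among regulators of the cycle, Cks2, a subunit of the cyclin-dependent kinases, read 858.5, 683.5 and 813.5 at 1 week and 22.7, 66.9 and 27.1 at 4 weeks. Its 4-week arrays were all below background, giving a level at least 6.27-fold higher at 1 week (log2 -4.50 ± 0.57, adjusted p = 6.6e-06, limma). Cdk1, the kinase that drives entry into mitosis, fell by 2.61 ± 0.63 (761 ± 47.4 to 137 ± 64.7), and the call ended without 4-week array 1 (adjusted p = 0.0602, limma). Its partner cyclin Ccnb2 read 1844.2, 1769.6 and 1916.6 and then 583, 618.7 and 574.7, a fall of 1.64 ± 0.21. Cks1b fell by 1.93 ± 0.38, Cdk4, the kinase of the cyclin D complexes, by 1.20 ± 0.26, and Wee1, which restrains Cdk1, at least 2.27-fold to below background. Cyclin D1, Ccnd1, had 791 ± 132 and 674 ± 116 and did not pass. Of the brakes, the antiproliferative Btg1 fell by 1.48 ± 0.22 and the pocket protein Rbl1 by 1.98 ± 0.43 (adjusted p = 0.12 in the fit of 6 arrays, limma). Tfdp1, the dimer partner of E2F, fell by 1.00 ± 0.19. No inhibitor rose: the kinase inhibitors Cdkn1a (674 ± 39.3 and 381 ± 144) and Cdkn1c (924 ± 100 and 665 ± 28.7) did not pass.

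Of the replication machinery, the ribonucleotide reductase subunit Rrm2, which makes deoxynucleotides, read 654.9, 827.7 and 538.1 at 1 week and 175.3, 73.3 and 137.7 at 4 weeks (log2 -2.46 ± 0.55). The helicase subunit Mcm5 read 1144.3, 878.7 and 1476.7 and then 328.8, 217.9 and 270.4 (log2 -2.09 ± 0.42), and Mcm7 fell by 1.92 ± 0.31. Tk1, the salvage kinase for thymidine, fell by 2.08 ± 0.36, Uhrf1, which copies DNA methylation, by 2.13 ± 0.47, and the sliding clamp Pcna by 1.43 ± 0.21 (1228 ± 429 to 442 ± 67.2). Rfc4, a clamp loader subunit, was below background at 4 weeks and fell at least 1.32-fold. Mcm2 (-2.48 ± 0.59), Rrm1 (-2.34 ± 0.58), Mcm3 (at least 2.47-fold, to below background) and Lig1 (-2.14 ± 0.58) also fell, and each lost its call without at least 1 array. For Mcm2 this was 4-week array 3 (adjusted p = 0.0647, limma), and for Mcm3 4-week array 1 (0.0538). For Rrm1 they were 4-week arrays 2 and 3 (0.0504 and 0.0813), and for Lig1 1-week array 3 (0.0651) and 4-week arrays 2 and 3 (0.0824 and 0.0952).

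Of the mitotic genes, several that act in cytokinesis fell to below background, where only a lower bound of the fall can be given. Prc1, which bundles the microtubules of the midzone, read 525.7, 529.5 and 230.3 at 1 week and 34.2, 44.3 and 35 at 4 weeks (at least 3.21-fold). Racgap1, a regulator of the contractile ring, was at least 2.47-fold higher at 1 week and the ring scaffold Anln at least 3.15-fold. Cdc20, the activator of the anaphase-promoting complex, stayed above background at both ages: it read 1192.8, 1546.1 and 1519.9 and then 340.6, 342 and 417.4 (log2 -1.95 ± 0.27). Tubulin Tubb5, the main beta chain of dividing cells, fell by 1.98 ± 0.24 from 7306 ± 2285 to 1804 ± 166, and the histone variant H2az1 by 1.68 ± 0.27. Outside the lists, the spindle protein Ckap2 fell at least 2.62-fold and the S-phase factor Tcf19 at least 2.67-fold, both to below background. Bub1 and Ncaph were also called lower, but had 1-week means of 113 and 96.2, below background, and their calls ended with a floor at a signal of 100. The standard marker Mki67 had 261 ± 101 and 76.8 ± 22 and did not pass (adjusted p = 0.0883, limma), although the ages did not overlap.

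Of 20 measured genes of the growth hormone and insulin-like growth factor axis none rose and 3 fell. Igf2, an imprinted fetal growth factor, read 12882.8, 14422.6 and 13194.8 at 1 week and 2301.3, 2472.8 and 2993 at 4 weeks (log2 -2.39 ± 0.15, adjusted p = 9.37e-11, limma). Its second probe set, below background, did not pass. Igf1, the ligand that growth hormone controls after birth, read 1155.2, 1107.8 and 1153.9 and then 1217.7, 1286.9 and 1174.5, a difference of 0.11 ± 0.16 that did not pass. The shared receptor Igf1r fell by 0.88 ± 0.22 (1655 ± 189 to 901 ± 103), which ended without 4-week array 3 (adjusted p = 0.054, limma). The binding protein Igfbp4 fell by 0.94 ± 0.22, a call that ended without 1-week array 3 (0.0537), without 4-week array 1 (0.0703) and in the fit of 6 arrays (0.151). The growth hormone receptor Ghr (602 ± 190 and 663 ± 97.6) and Igf2r, the clearance receptor for Igf2 (1575 ± 204 and 1282 ± 210), did not pass. Neither did the signal transducers and feedback inhibitors of the axis (Stat5a, Stat5b, Cish, Socs1, Socs2, Socs3), the binding proteins Igfbp2, Igfbp3 and Igfbp6, or Igf2bp1, Insr, Irs1, Irs2 and Igfals.

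Of 19 measured imprinted genes, a class many of whose members promote or restrain fetal growth, 6 fell and none rose. Mest, a paternally expressed growth gene, read 1795.1, 1690.1 and 1166.8 at 1 week and 128.2, 210.9 and 159.9 at 4 weeks (log2 -3.23 ± 0.62). Peg3 fell by 1.54 ± 0.21 (1240 ± 107 to 426 ± 41.4) and necdin, Ndn, by 1.45 ± 0.31. Plagl1, a transcription factor, fell at least 3.83-fold to below background, and its call ended without 1-week array 1 (adjusted p = 0.0994, limma), 1-week array 2 (0.0866) or 4-week array 3 (0.1) and in the fit of 6 arrays (0.059). Among 38 genes of neuregulin, FGF, TGF-beta and BMP signalling none rose and 3 fell, and all 3 calls ended without 1 array. Of all genes 5.14% fell. In Wnt, Notch and retinoic acid signalling 2 of 28 rose and 5 fell. Aldh1a1, which makes retinoic acid, read 169.3, 171.7 and 155 and then 719.2, 848.2 and 788.9 (log2 2.25 ± 0.20). Its relative Aldh1a2 fell, with a mean of 214 at 1 week and at most 126 in every other group. The Wnt antagonist Sfrp2 fell by 1.10 ± 0.23 from 581 ± 70 to 271 ± 32.4. Among 27 cardiac transcription factors none rose and Sox4 fell (2403 ± 1187 to 659 ± 369), with an adjusted p of 0.0834 in the fit of 6 arrays (limma). Gata4 (1237 ± 16.7 and 1254 ± 325) and Nkx2-5 (2302 ± 363 and 2278 ± 401) did not pass.

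Of 18 genes of fibrillar collagens and elastic fibres 12 fell and none rose, with a median change of -1.02. Elastin, Eln, the core of elastic fibres, read 18818.8, 20653.2 and 20724 at 1 week and 5717.6, 5975.7 and 5040.8 at 4 weeks (log2 -1.85 ± 0.18, adjusted p = 2.1e-07, limma). Collagen I, the main fibril of scar and of the heart's fibrous frame, fell in both chains: Col1a1 read 16952.4, 12666.5 and 16795.4 and then 4871.6, 5320.2 and 4497.6 (log2 -1.65 ± 0.15), and Col1a2 fell by 1.67 ± 0.15. Col5a2, which sets fibril diameter, fell by 1.70 ± 0.24, Col3a1 by 1.29 ± 0.25, and the microfibril protein Mfap2 by 2.08 ± 0.23 (1504 ± 347 to 351 ± 30.2). At 4 weeks Col1a1 and Eln were still above adult groups, whose means were 689 to 1074 and 746 to 865. A test of 4 weeks against adults was not made here.

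Matricellular proteins signal to cells without being structural fibres, and of 27 measured 7 fell and 2 rose. Periostin, Postn, made by activated fibroblasts, read 7697.4, 7369.3 and 3163.9 at 1 week and 1113.5, 1328.3 and 851.8 at 4 weeks (log2 -2.38 ± 0.28). The third 1-week array was the lowest of its age for Postn and was still above all 4-week arrays. Ccn3 fell by 2.41 ± 0.52, Ccn2 by 1.41 ± 0.26, fibronectin Fn1 by 0.98 ± 0.17 and Tnxb by 1.17 ± 0.26. Tnxb peaked at 1 week, with a mean of 1565 there and at most 862 in any other group. Tnc, at least 1.9-fold lower at 4 weeks and below background there, lost its call in 4 of the 6 fits without 1 array, those without any of the 1-week arrays (adjusted p = 0.0725, 0.0781 and 0.0622, limma) and without 4-week array 1 (0.154). In the basement membrane, the sheet around myocytes and vessels, 6 of 22 fell and 1 rose. Nid2, a linker of laminin and collagen IV, fell at least 3.63-fold to below background, while the laminin chain Lamb2 rose by 1.04 ± 0.21 (663 ± 222 to 1315 ± 86.9). Not all matrix genes fell: decorin, Dcn, a proteoglycan of mature collagen, read 12554.9, 12657.4 and 10727.7 and then 14684.1, 14477 and 14250 (0.28 ± 0.14, adjusted p = 0.277, limma). Sparc (4496 ± 835 and 4702 ± 187) did not pass either.

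Of 15 markers of fibroblasts and epicardium 6 fell and none rose, their summed signal going from 46350 to 54204 at 1 week to 28100 to 30364 at 4 weeks. Of those that fell, Col1a1, Col3a1, Postn and Lum encode matrix proteins counted above. The call of Lum ended without 1-week array 1 (adjusted p = 0.0616, limma) and in the fit of 6 arrays (0.171). Tcf21, a transcription factor of cardiac fibroblasts that is no matrix gene, fell by 1.26 ± 0.21 (1086 ± 130 to 457 ± 92.9). The number of fibroblasts in the samples was not tested.

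Over the 173 measured genes of the fuel and mitochondrial lists 61 rose and 3 fell, with a median change of 0.41. The fits without 1 array each called 48 to 58 of the set higher, and 45 calls of the set held in all of them. The median deviation per array was -0.12, -0.13 and -0.12 at 1 week and 0.37, 0.30 and 0.36 at 4 weeks, without overlap.

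Glucose handling changed in its muscle isoforms. Of 22 glycolytic and glycogen genes 7 rose and 1 fell. The insulin-responsive transporter Slc2a4 read 836.7, 863.5 and 1278.5 at 1 week and 2781.9, 3239.8 and 3064.3 at 4 weeks (log2 1.63 ± 0.25). Hk2, the muscle hexokinase, read 1544.9, 1233.9 and 1242.4 and then 3477.9, 3515.6 and 3800.5 (log2 1.43 ± 0.14), opposite in direction to Hk1. The heart-type lactate dehydrogenase chain Ldhb rose by 0.96 ± 0.21 and the glycogen synthase Gys1 by 0.75 ± 0.18. Pdk3, a kinase that shuts pyruvate dehydrogenase, was among the 15 largest falls, reading 350.8, 364.7 and 345.8 and then 87.9, 38.6 and 32.2 (at least 2.84-fold). Its adult partner Pdk4 had 3139 ± 1426 and 3576 ± 680 and did not pass. In the pyruvate dehydrogenase complex and the citric acid cycle 12 of 26 genes rose and none fell, among them the succinyl-CoA ligase chain Suclg1 (1.01 ± 0.12), the dehydrogenase chains Dlat (0.96 ± 0.15), Pdhb (0.95 ± 0.17) and Sdha (0.95 ± 0.16) and citrate synthase Cs (0.55 ± 0.12).

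In fat uptake and storage 6 of 19 genes rose, none fell and 13 did not pass, with a median change of 0.02. Ces1d (Entrez gene 104158, chromosome 8), a carboxylesterase that hydrolyses lipids, read 13, 21.7 and 23.7 at 1 week and 902.1, 726.9 and 827.5 at 4 weeks. Its 1-week arrays were below background, which makes the rise at least 6.55-fold (log2 5.39 ± 0.28, adjusted p = 1.68e-12, limma), and both of its probe sets rose. Lipoprotein lipase, Lpl, which releases fatty acids from blood lipoproteins, read 4676, 4861 and 2336.7 and then 12689.3, 11960.9 and 14069.8 (log2 1.78 ± 0.29). The lipid-droplet coat Plin4 rose by 2.19 ± 0.25 and the triglyceride lipase Pnpla2 by 1.11 ± 0.19. The fatty acid binding protein Fabp3 had 15733 ± 1369 and 15975 ± 1753 and did not pass, after a rise of 2.72 ± 0.22 from E12.5 to neonate. Adipocyte markers were read beside Lpl and Pnpla2, which belong to that list: 2 of 13 rose, these same genes, and Adipoq, which defines fat cells, had a mean of 37.5 at 1 week and 113 at 4 weeks, below background. Beta-oxidation had 8 of 24 genes higher and 1 lower. Ech1 (1.21 ± 0.16) and Echs1 (1.21 ± 0.15), which act on the fatty acyl chain, Phyh (1.34 ± 0.21), a peroxisomal alpha-oxidase, and Eci1 (0.91 ± 0.16) rose. Cpt1a, the liver-type gate for fatty acids into mitochondria, read 1065.4, 1467.6 and 1312.2 and then 480.8, 641.9 and 485.7. It fell (log2 -1.26 ± 0.31, adjusted p = 0.00853, limma), opposite to the 8 that rose, and the other 15 did not pass.

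The largest share of genes rose in ketone and branched-chain amino acid use, 9 of 13, with a median change of 1.08. Oxct1, the rate-limiting enzyme for burning ketone bodies, read 1195.6, 1729.8 and 979.1 at 1 week and 6186.9, 6732.9 and 6272.5 at 4 weeks (log2 2.34 ± 0.18, adjusted p = 2.39e-09, limma). Its change from E12.5 to neonate was -0.03 ± 0.18. Bcat2, the first enzyme of branched-chain amino acid breakdown, rose by 1.79 ± 0.25 (260 ± 45.8 to 895 ± 120), Ivd by 1.23 ± 0.21, Hibadh by 1.08 ± 0.15 and the dehydrogenase chain Bckdhb by 1.06 ± 0.16.

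Complex I had 11 of 27 genes higher, complexes III and IV 4 of 20, and ATP synthase, creatine kinase and adenylate kinases 4 of 22 with 1 lower. Cox7a1, the heart and muscle form of a cytochrome oxidase subunit, read 2849.3, 2442.4 and 2608.4 at 1 week and 8165.9, 7195.6 and 8740.5 at 4 weeks (log2 1.61 ± 0.15). Its ubiquitous partner Cox7a2 had 12940 ± 946 and 15817 ± 1085 and did not pass. Ndufb3 rose by 1.20 ± 0.20, Ndufs3 by 0.96 ± 0.14, Ndufs1 by 0.89 ± 0.16, Uqcrb of complex III by 1.35 ± 0.19 and Uqcrc2 by 0.83 ± 0.18. Ndufs4, at 32.3 ± 7.76 and 145 ± 22.8, rose from below background to between 124.6 and 169.7. Adenylate kinase Ak1 rose by 1.20 ± 0.14. Atpif1, the inhibitor of ATP synthase, fell by 0.85 ± 0.14 (5813 ± 621 to 3213 ± 101). The mitochondrial creatine kinase Ckmt2 rose by 0.84 ± 0.24, a call that ended without 1-week array 1 (adjusted p = 0.0955, limma), 1-week array 2 (0.0639), 4-week array 1 (0.105) or 4-week array 3 (0.103).

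Of 21 regulators of metabolism 4 rose and 2 fell. The nuclear receptor Rxrg had a mean of 102 ± 71.3 at 1 week and 508 ± 107 at 4 weeks (log2 2.70 ± 0.52), with an adjusted p of 0.0833 in the fit of 6 arrays (limma). The thyroid hormone receptor Thra fell by 0.74 ± 0.17 (2393 ± 292 to 1421 ± 50.9). Hif1a, the oxygen-regulated transcription factor, read 5001, 5231.8 and 2266.1 and then 1777.3, 1865.2 and 1874. The third 1-week array was the lowest of its age and above all 4-week arrays, and the adjusted p of 0.000879 became 0.103 in the fit of 6 arrays (limma). The coactivator Ppargc1a had 104 ± 54 and 162 ± 54 and did not pass, and neither did the receptor Esrra (1590 ± 108 and 2144 ± 190). The fatty acid receptor Ppara was higher by 0.68 ± 0.18, which ended without 1-week array 1 (0.109) or 4-week array 1 (0.112) and in the fit of 6 arrays (0.136).

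**Figure D3:**
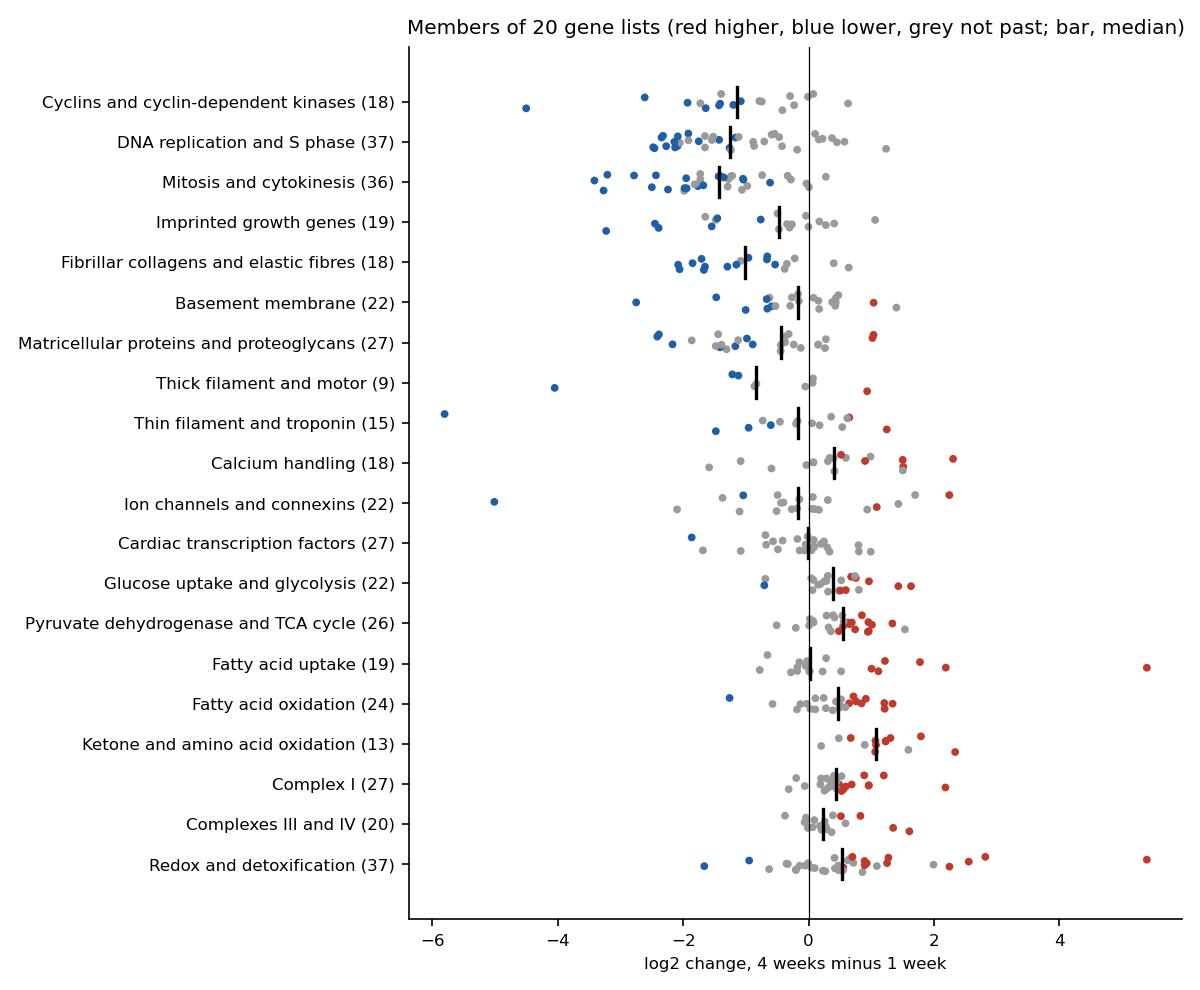
Change from 1 to 4 weeks (log2, horizontal axis) of every measured member of 20 gene lists (rows), coloured where the adjusted p was under 0.05, with a bar at each list's median. Medians of the cell division and fibrillar matrix lists lie left of 0, with values of -1.42 for mitosis and -1.02 for fibrillar and elastic genes, and ketone and amino acid use lies farthest right at 1.08.

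Of 37 genes that handle oxidants and foreign compounds 11 rose, 2 fell and 24 did not pass, with a median of 0.54. Gstk1, a glutathione transferase of mitochondria and peroxisomes, read 214.9, 206.4 and 299.8 at 1 week and 1374.3, 1227.3 and 1596.7 at 4 weeks (log2 2.55 ± 0.24). Aox1, an aldehyde oxidase, rose at least 2.09-fold, from below background on all 3 arrays (38.6 ± 14.8) to 265 ± 62.9. The glutathione transferases Gstm1 (1.25 ± 0.17) and Gstm2 (1.27 ± 0.25), whose family members are similar in sequence, and the manganese superoxide dismutase Sod2 (0.89 ± 0.18) rose. The peroxidase Prdx4 of the endoplasmic reticulum fell by 1.66 ± 0.31 and the secreted peroxidase Gpx3 by 0.95 ± 0.17. Among 28 immediate early and heat shock genes 3 rose and 6 fell. The chaperones Hspa5 (0.99 ± 0.22) and Hspe1 (0.78 ± 0.12) rose, while the immediate early factors Jun (-1.20 ± 0.22), Atf3 (-1.22 ± 0.25) and Ier2 (-0.97 ± 0.19) fell. Jun read 968.5, 880.9 and 784.7 and then 370.3, 446.7 and 334.3. Its 1-week mean of 878 stood above that of every other group, neonates included, which was at most 428. Nr1d1, a repressor in the circadian clock, was the 1 of 12 clock genes to rise (466 ± 55.1 to 1133 ± 105). In translation, the muscle elongation factor Eef1a2 rose by 1.11 ± 0.26 (11252 ± 2701 to 24039 ± 4489) and its ubiquitous partner Eef1a1 fell by 0.76 ± 0.16 (25755 ± 887 to 15190 ± 929).

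Immune genes rose in small numbers. Of 57 genes of interferon response, antigen presentation and complement 7 rose and 1 fell, and in the fit of 6 arrays 3 rose and none fell. Without 4-week array 1, 4 rose and 1 fell, and without 1-week array 2, 6 rose and 3 fell. Ceruloplasmin, Cp, a copper-binding plasma protein, rose by 2.21 ± 0.38 (109 ± 50.2 to 464 ± 77.1) and the complement subunit C1qa by 0.74 ± 0.17. The class II antigen H2-Aa read 32.3, 23.7 and 39.2 at 1 week and 439, 62.2 and 232.2 at 4 weeks, where 1 array stayed below background. Its adjusted p of 0.000349 became 0.105 in the fit of 6 arrays (limma). Iigp1, an interferon-induced GTPase, had 190 ± 194 and 877 ± 163 (log2 2.95 ± 0.60), with an adjusted p of 0.127 in the fit of 6 arrays. Of 20 macrophage markers 5 rose and none fell, and their summed signal was 7068 to 7255 at 1 week and 10663 to 11238 at 4 weeks. The lysozyme Lyz2 read 192.6, 338.9 and 235.8 and then 815.1, 923.4 and 915.6 (log2 1.83 ± 0.31), whereas Cd68 had 330 ± 43.8 and 340 ± 93.4. No lymphocyte, neuronal or erythroid marker passed, out of 15, 14 and 21. Since 10.2% of all genes passed, lists this short could hold few calls. Summed erythroid signal was 62244 to 72061 at 1 week and 48630 to 51172 at 4 weeks.

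Endothelial markers split, with 3 of 20 higher and 3 lower. The tight-junction protein Cldn5 read 1563.6, 1593.8 and 2167.5 at 1 week and 408.5, 407.4 and 533 at 4 weeks (log2 -1.98 ± 0.35), and Emcn fell by 0.53 ± 0.12. Icam2 fell by 1.16 ± 0.25, with an adjusted p of 0.113 in the fit of 6 arrays (limma). The 1-week means of Cldn5 (1775) and Icam2 (875) stood above those of every other group, which were at most 958 and 554. The calls of the 3 that rose each ended without at least 1 array: that of Flt1 (0.84 ± 0.20) without 1-week array 2 (0.0626) and in the fit of 6 arrays (0.0866), and those of Vwf and Aqp1 in 5 fits each, all but that without 1-week array 3, with adjusted p up to 0.17 and 0.149. The endothelial cadherin Cdh5 (2670 ± 507 and 1876 ± 250) and Pecam1 (474 ± 112 and 519 ± 23.6) did not pass.

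Among the 15 largest fitted changes in each direction, Psme4, a proteasome activator, read 777, 766.7 and 334.9 at 1 week and 2852.8, 2959.7 and 2881.1 at 4 weeks (log2 2.31 ± 0.24). Pkia, an inhibitor of protein kinase A, rose by 2.33 ± 0.29, and the sialyltransferase St3gal5 by 2.30 ± 0.36. Zbtb16, a transcription factor, rose by 2.66 ± 0.48, and the proteoglycan Spock2, below background at 1 week, at least 2.68-fold. Uridine phosphorylase Upp1 fell at least 3.96-fold, to below background. B3galnt2 rose and the caspase Casp6 fell, with means of 134 ± 18.7 and 133 ± 42.3 in the higher group that were just above background, and their calls ended with a floor at a signal of 100.

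The changes after 1 week were set beside those from E12.5 to neonate, an interval that begins before birth. The difference between 1 to 4 weeks and E12.5 to neonate was taken, with 4 groups that share no array between the contrasts. When within the earlier interval a gene changed was not tested. The difference passed for 1011 of 9952 probe sets (10.2%), 4.17% higher and 5.99% lower. From E12.5 to neonate 1687 probe sets (17%) passed, 9.42% higher and 7.54% lower. Of 113 proliferation genes 39 fell from E12.5 to neonate and 1 rose, 22 fell in both intervals, and the difference passed for 6 of the 43 that fell after 1 week. Of 173 mitochondrial and fuel genes 99 rose from E12.5 to neonate and 43 rose in both intervals. For 18 of the 61 that rose after 1 week the difference passed. For Oxct1 it was 2.37 ± 0.25 (adjusted p = 4.1e-07, limma) and for Hk2 1.68 ± 0.19. Of 81 matrix genes 32 rose from E12.5 to neonate and 4 fell, and 14 rose in that interval and then fell from 1 to 4 weeks. The difference passed for 20 of the 25 that fell after 1 week. Col1a1 had risen by 2.64 ± 0.15 from E12.5 to neonate and Eln by 2.40 ± 0.18, so their differences were -4.29 ± 0.21 and -4.25 ± 0.26. In the sarcomere, Tnni1 changed by 0.20 ± 0.24 from E12.5 to neonate and its difference was -6.01 ± 0.34. Acta1 had fallen by 1.51 ± 0.23 in that interval before it rose.

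**Figure D4:**
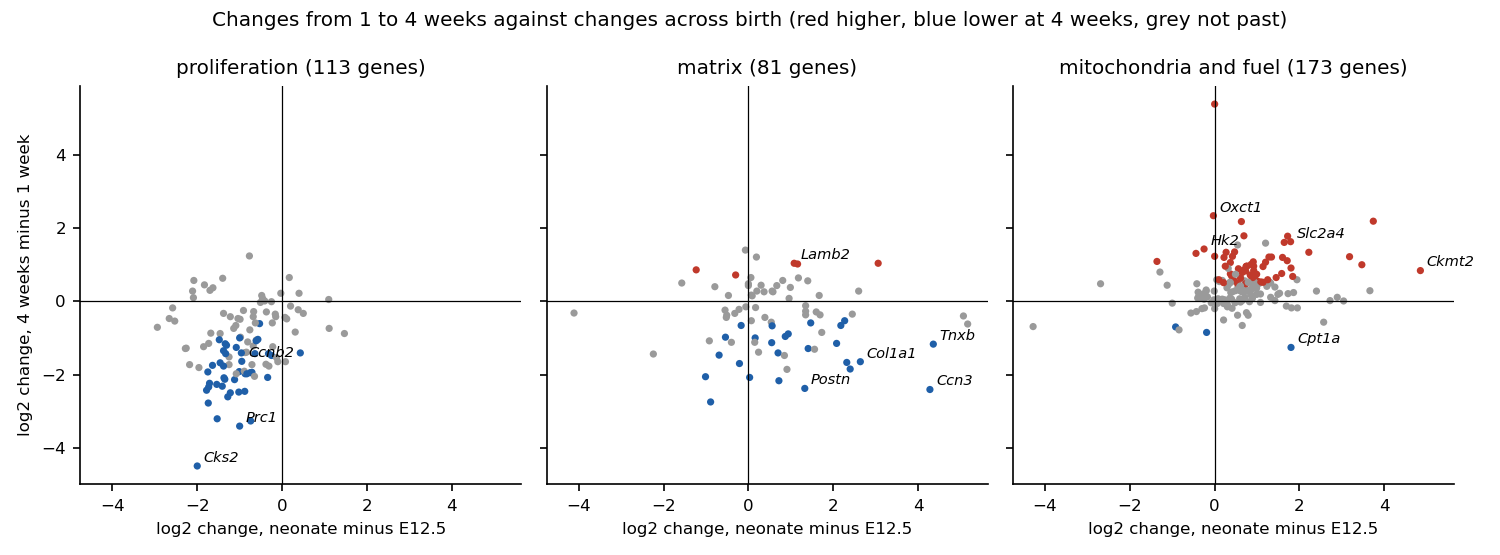
Change from 1 to 4 weeks (log2, vertical axis) against change from E12.5 to neonate (log2, horizontal axis) for the genes of 3 sets, in 1 panel each, with genes past the threshold from 1 to 4 weeks in colour. Passing in both intervals, 22 proliferation genes lie lower in both and 43 mitochondrial and fuel genes higher in both. Also passing in both, 14 matrix genes lie higher from E12.5 to neonate and lower later.

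The log2 changes of adults against neonates use none of the 6 arrays, so their signs do not depend on them. Their SEs and adjusted p come from the same limma fit, where the 6 arrays help set the spread of each probe set. The counts past the threshold below are thus not independent of the calls between 1 and 4 weeks. Of all probe sets 18.5% passed in 3-month females against neonates and 17.7% in 5-month males. Of the 442 probe sets higher at 4 weeks than at 1 week, 423 (95.7%) were higher in 5-month males than in neonates, 329 of them (74.4%) past the threshold and none called the other way. These 329 are 39.4% of the 836 called higher in that comparison (8.4% of all probe sets). In 3-month females 414 (93.7%) had the same sign, 288 passed (65.2%, or 35.1% of the 820 called higher there, 8.24% of all) and 3 were called lower. Of the 467 lower at 4 weeks, 435 (93.1%) were lower in 5-month males, 338 (72.4%) past the threshold and 5 called higher. The 338 are 36.4% of the 929 called lower (9.33%). In 3-month females 435 had the same sign, 335 passed (71.7%, or 32.7% of 1023, 10.3% of all) and 7 were called higher. After centring each array on its median, the 3-month comparison counted 951 higher and 791 lower in place of 820 and 1023. The 5-month one counted 957 and 725 in place of 836 and 929.

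**Figure D5:**
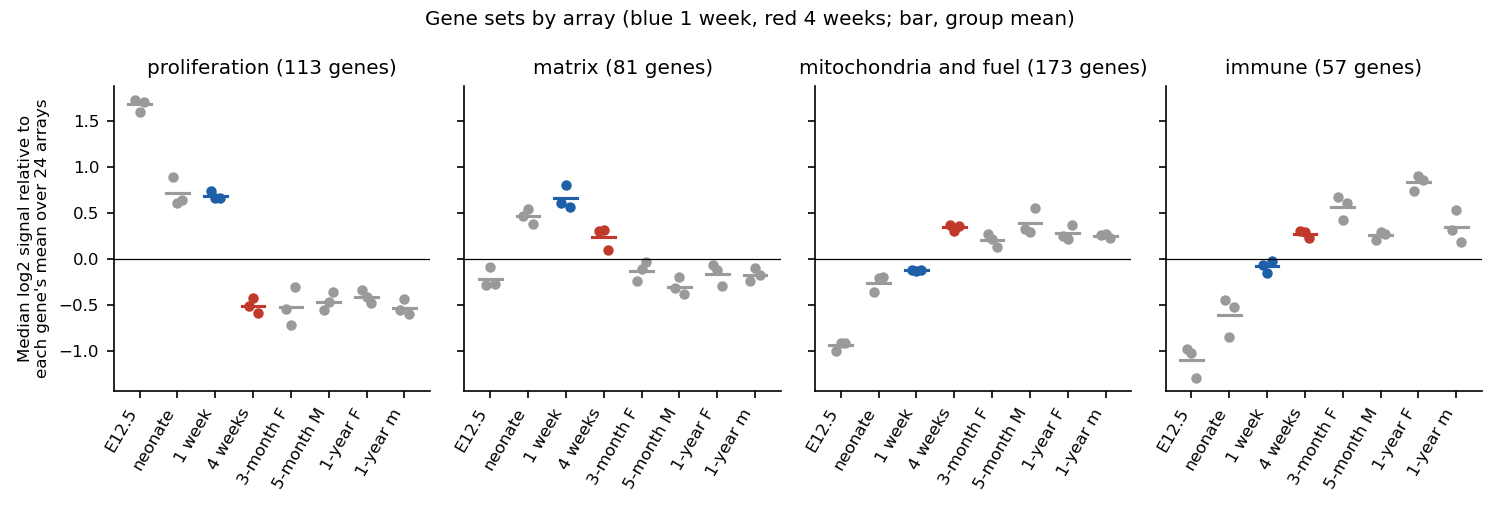
Median log2 deviation from the gene's 24-array mean (vertical axis) on each array of the 8 groups, with a bar at each group mean, for genes of proliferation, matrix, mitochondria and fuel, and immune genes. Proliferation drops between 1 and 4 weeks from 0.66 to 0.74 down to -0.59 to -0.42, and mitochondria and fuel rises from below 0 to between 0.30 and 0.37.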

How the data were processed

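Linear intensity values were deposited by the authors as 1 table of 12654 probe sets by 24 single-channel arrays. A trimmed mean of 500.44 to 500.6 on each array shows that the authors' intensities had been scaled to a common level. For array software and detection calls, nothing was given in the sources used here. Samples were grouped by the labels. Control probe sets (66) and those listed at 0 on all arrays (2611) were left out, signals below the 25th percentile of the table (14.2) were set to it, and log2 values were fitted with limma 3.58.1 in R 4.3.3, with a mean for each of the 8 groups, an intensity trend and Benjamini-Hochberg adjustment over 9952 probe sets at 0.05, two-sided. Symbols came from the platform annotation, updated by Entrez ID to RefSeq: 8724 probe sets had 1 symbol, 346 several and 907 none. Only those with 1 were named. For genes with several probe sets the brightest on average was used. Genes named were the 15 largest rises and falls, up to 6 called genes per list, all of 4 short lists, leading markers and partner isoforms. The members and lists were chosen with earlier results of these data known. On simulated data the fit recovered 68 of 100 changes of 2-fold and 95 of 100 of 4-fold, with 11 false calls among the unchanged probe sets. The changes were planted only in probe sets brighter than the median, with normal noise, so these rates do not cover dimmer ones. The number of arrays, 3 per group, limits the precision. A fold against an age below background on all 3 arrays is given as at least the ratio to 124.6, and any fitted log2 change printed beside it is not a bound. Alternatives tried were array weights, median centring, quantile normalization, other floors and filters, an added offset, no trend, only the arrays compared, and leaving out each array.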

Additional observations from a re-analysis of the deposited data

How the results depend on the processing

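No paired analysis was possible because the animal numbers in the titles are not shared between the ages. Fitting only the 6 arrays gave 586 probe sets past the threshold (284 higher, 302 lower), of which 516 were among the 909. Leaving out each array in turn gave 631 to 838 (306 to 436 higher, 325 to 402 lower), the lowest without 4-week array 3. No probe set was called in the opposite direction under any alternative run. Genes with changes near 0, none of which passed with all arrays, changed sign in some settings, with these log2 changes. With array weights they were Irs1 -0.07, Myl3 -0.01, Nkx2-5 0.04, Socs3 -0.09. With arrays centred on the median they were Gata4 0.02, Nkx2-5 0.01. With a floor at a signal of 100 they were Insr 0.00, Socs3 0.00. With quantile normalization they were Actc1 -0.05, Fabp3 -0.05, Gja1 -0.06, Myh6 -0.01, Myl3 -0.03, Socs3 -0.04. Over the fits without 1 array each the ranges were Cd68 -0.19 to 0.19, Fabp3 -0.04 to 0.11, Gata4 -0.19 to 0.20, Ghr -0.01 to 0.42, Igfals -0.19 to 0.48, Irs1 -0.23 to 0.28, Kcnq1 -0.08 to 0.29, Myh6 -0.03 to 0.19, Myl2 -0.11 to 0.01, Myl3 -0.05 to 0.24, Nkx2-5 -0.16 to 0.11, Pdk4 -0.12 to 0.60, Socs2 -0.04 to 0.26, Socs3 -0.22 to 0.27, Sparc -0.04 to 0.22, Stat5b -0.08 to 0.29. The arrays number 3 per age, and signals under 124.6 carry no order.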

Other observations

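Genes in this part were grouped or picked after their values were seen. Of 21 peroxisomal genes, whose products oxidise long and branched fatty acids, 9 rose and none fell from 1 to 4 weeks, with a median change of 0.92. Of 56 mitochondrial ribosomal protein genes 15 rose and none fell, with a median of 0.38. Of 7 genes of the Bex, Tceal, Maged and Armcx families 6 fell, with a median of -1.74. Among 17 genes known to respond to glucocorticoids 5 rose and 1 fell.

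Gsn, the actin-severing protein gelsolin, read 2804.5, 2434.5 and 3174.9 at 1 week and 12693.5, 12570.4 and 13473.6 at 4 weeks, a rise of 2.21 ± 0.17. Tmsb10, which binds actin monomers, read 9137.3, 9078.6 and 11024.5 and then 1555.2, 1998.3 and 1592.8, a fall of 2.51 ± 0.17. Of 236 genes on the X chromosome 24 were lower (10.2%) and 4 higher (1.69%) at 4 weeks, where the other chromosomes had 2.65% to 7.64% lower. The Bex, Tceal, Maged and Armcx families are mainly X-linked, so this count overlaps theirs and is not a separate result. Xist differed between 1-week array 1 and the other arrays, and its part in this was not tested.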
